A study of Mus musculus with 14 samples.

Results

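Among 14 libraries of mouse tibia RNA, 3 held transcripts typical of lymph node at higher levels than the other 11. They were chosen by 1 measured value, a level of Glycam1 over 5 CPM (a gene's estimated count times 1000000 over the library's total), and are OVX-ZA 1, OVX-ZA 2 and sham 3. They are called the carrying libraries here and the other 11 the lacking libraries, where these names stand for a high and a low level of Glycam1 and not for presence and absence of the transcripts. The carrying library nearest the threshold, OVX-ZA 1, read 14.9 CPM, and the lacking library nearest to it, OVX-PBS 1, read 0.796 CPM. Because a measured value chose the libraries, every comparison of carrying with lacking libraries is a description without a test.

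All mice were wild-type female C57Bl/6 that had sham surgery or had their ovaries removed (ovariectomy, OVX), and treatment began 2 to 4 days after surgery and lasted 8 weeks. OVX-ZA mice (3 libraries) received zoledronic acid, a bisphosphonate that blocks bone resorption, OVX-HA mice (3) hippuric acid, OVX-PPA mice (2) 3-(3-hydroxyphenyl)propionic acid and OVX-PBS mice (3) the PBS vehicle, while sham mice (3) kept their ovaries. The labels give neither age nor dose, and do not say whether a library is 1 animal or a pool, so p-values below measure only the spread between libraries. The carrying libraries thus hold 2 of the 3 OVX-ZA libraries, 1 of the 3 sham libraries and none of the OVX-HA, OVX-PPA and OVX-PBS libraries.

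A lymph node filters lymph and brings lymphocytes together with antigen. Lymphocytes enter it from blood through high endothelial venules, whose lining cells present sulphated glycoproteins such as GLYCAM1 to passing lymphocytes, and stromal cells then place them by chemokines, with CXCL13 drawing B cells into follicles and CCL19 and CCL21 holding T cells and dendritic cells in the T zone. Follicular dendritic cells, which carry the complement receptor CR2, hold antigen in the follicle, and macrophages line the sinuses through which the lymph passes. Long bones have no lymph node of their own, but nodes lie in the fat around the knee and groin, and marrow itself holds many B cells and some T cells.

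The sequences upstream of 4 genes are shown because these genes mark different compartments (venule, follicle stroma, follicular dendritic cell and sinus macrophage) and were all higher in every carrying library. Each run is the 250 bases before the RefSeq start of the gene (build GRCm38.p6), 5′ to 3′ on the gene's strand, at chr15:103565082-103565331 (minus strand) for Glycam1, chr5:95956689-95956938 (plus) for Cxcl13, chr1:195176720-195176969 (minus) for Cr2 and chr1:120505025-120505274 (minus) for Marco. Capitals mark matches on either strand to TATAAA, the TATA box, or to a loose form of the NF-kappaB site (GGG, any 5 bases, CC).
Glycam1: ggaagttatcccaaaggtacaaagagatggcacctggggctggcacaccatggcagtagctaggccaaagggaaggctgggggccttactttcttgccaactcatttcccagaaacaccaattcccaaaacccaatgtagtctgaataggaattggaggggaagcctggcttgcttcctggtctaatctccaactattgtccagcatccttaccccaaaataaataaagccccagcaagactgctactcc
Cxcl13: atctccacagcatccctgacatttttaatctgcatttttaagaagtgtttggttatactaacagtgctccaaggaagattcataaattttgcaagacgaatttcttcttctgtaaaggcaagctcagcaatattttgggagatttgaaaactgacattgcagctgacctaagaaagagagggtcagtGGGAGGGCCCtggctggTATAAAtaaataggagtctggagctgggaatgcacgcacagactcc
Cr2: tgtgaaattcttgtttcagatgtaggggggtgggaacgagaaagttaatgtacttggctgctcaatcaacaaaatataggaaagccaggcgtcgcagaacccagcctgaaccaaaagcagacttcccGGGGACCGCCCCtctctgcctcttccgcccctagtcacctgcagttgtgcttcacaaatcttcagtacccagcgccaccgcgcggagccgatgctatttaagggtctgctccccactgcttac
Marco: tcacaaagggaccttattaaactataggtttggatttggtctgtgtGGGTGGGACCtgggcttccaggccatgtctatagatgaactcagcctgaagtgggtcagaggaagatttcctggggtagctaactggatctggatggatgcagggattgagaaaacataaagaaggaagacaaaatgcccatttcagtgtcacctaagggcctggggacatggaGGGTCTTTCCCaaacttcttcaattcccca
Counting -1 as the last base before the start, Cxcl13 held TATAAA at -46 to -41 and, in a palindromic run at -63 to -54, the loose NF-kappaB form on both strands. Cr2 held overlapping matches to the NF-kappaB form on both strands between -123 and -112, and Marco held 1 at -204 to -195 and an overlapping pair between -30 and -20. Glycam1 held neither in this window. Of the windows of the same length before all 32851 starts in the set, 12.4% held TATAAA and 45.8% the NF-kappaB form. A match describes the letters and is no evidence that a factor binds there.

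Libraries held 11.9 to 35.4 M estimated counts, and OVX-ZA 1 was the shallowest at 11.9 M (OVX-ZA 2 21.5 M, sham 3 29.2 M). Central nervous system transcripts were nearly missing from 2 lacking libraries, OVX-PBS 1 and OVX-HA 2, where the myelin gene Mobp read 4.83 and 1.17 CPM against 156 to 552 CPM in the other 12 libraries. Counts of genes that separate the libraries are therefore also given against the 9 remaining lacking libraries.

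Glycam1 (ENSMUSG00000022491, mm10 chr15:103562759-103565081, minus strand) read 14.9 CPM in OVX-ZA 1, 40.2 in OVX-ZA 2 and 30.8 in sham 3, from 177, 864 and 901 estimated counts. In the same treatments it read 0 in OVX-ZA 3, 0.132 in sham 1 and 0.430 in sham 2, and over all 11 lacking libraries it ran from 0 to 0.796 with a median of 0.132 CPM. The lowest carrying library was 16.7-fold above the highest lacking one (0.1 CPM added to both). The 0 counts in OVX-ZA 3 allow a level of up to 0.119 CPM (3 counts), while 16 counts in OVX-PBS 1, 17 in OVX-HA 2 and 14 in sham 2 were above 0, so the transcript was not wholly missing from the lacking libraries. These limits and the Poisson intervals below cover counting error only.

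A gene is called separated here when every carrying library lay above every lacking one, which held for 0.524% of all genes. Glycam1 was the 1 separated gene among the 13 of the high endothelial venule list, and its separation was fixed by the rule. Chst4, the sulphotransferase that modifies such glycoproteins in these venules, read 0 in OVX-ZA 1, 0.651 in OVX-ZA 2 and 0.445 in sham 3, against 0 to 0.395 CPM in the lacking libraries. Madcam1, the addressin for the gut-homing integrin, read 0, 0.372 and 0.479 CPM in the same order, against 0 to 0.184 CPM. Both genes thus overlapped, with their highest values in OVX-ZA 2 and sham 3, and both were at 0 in OVX-ZA 1, where 0 counts allow up to 0.252 CPM. The other 10, among them Ackr1 (18.0 to 20.9 against 18.0 to 31.4 CPM) and Cd34 (64.1 to 74.2 against 53.9 to 71.5 CPM), are also made in other vessels and overlapped between carrying and lacking libraries.

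**Figure D1:**
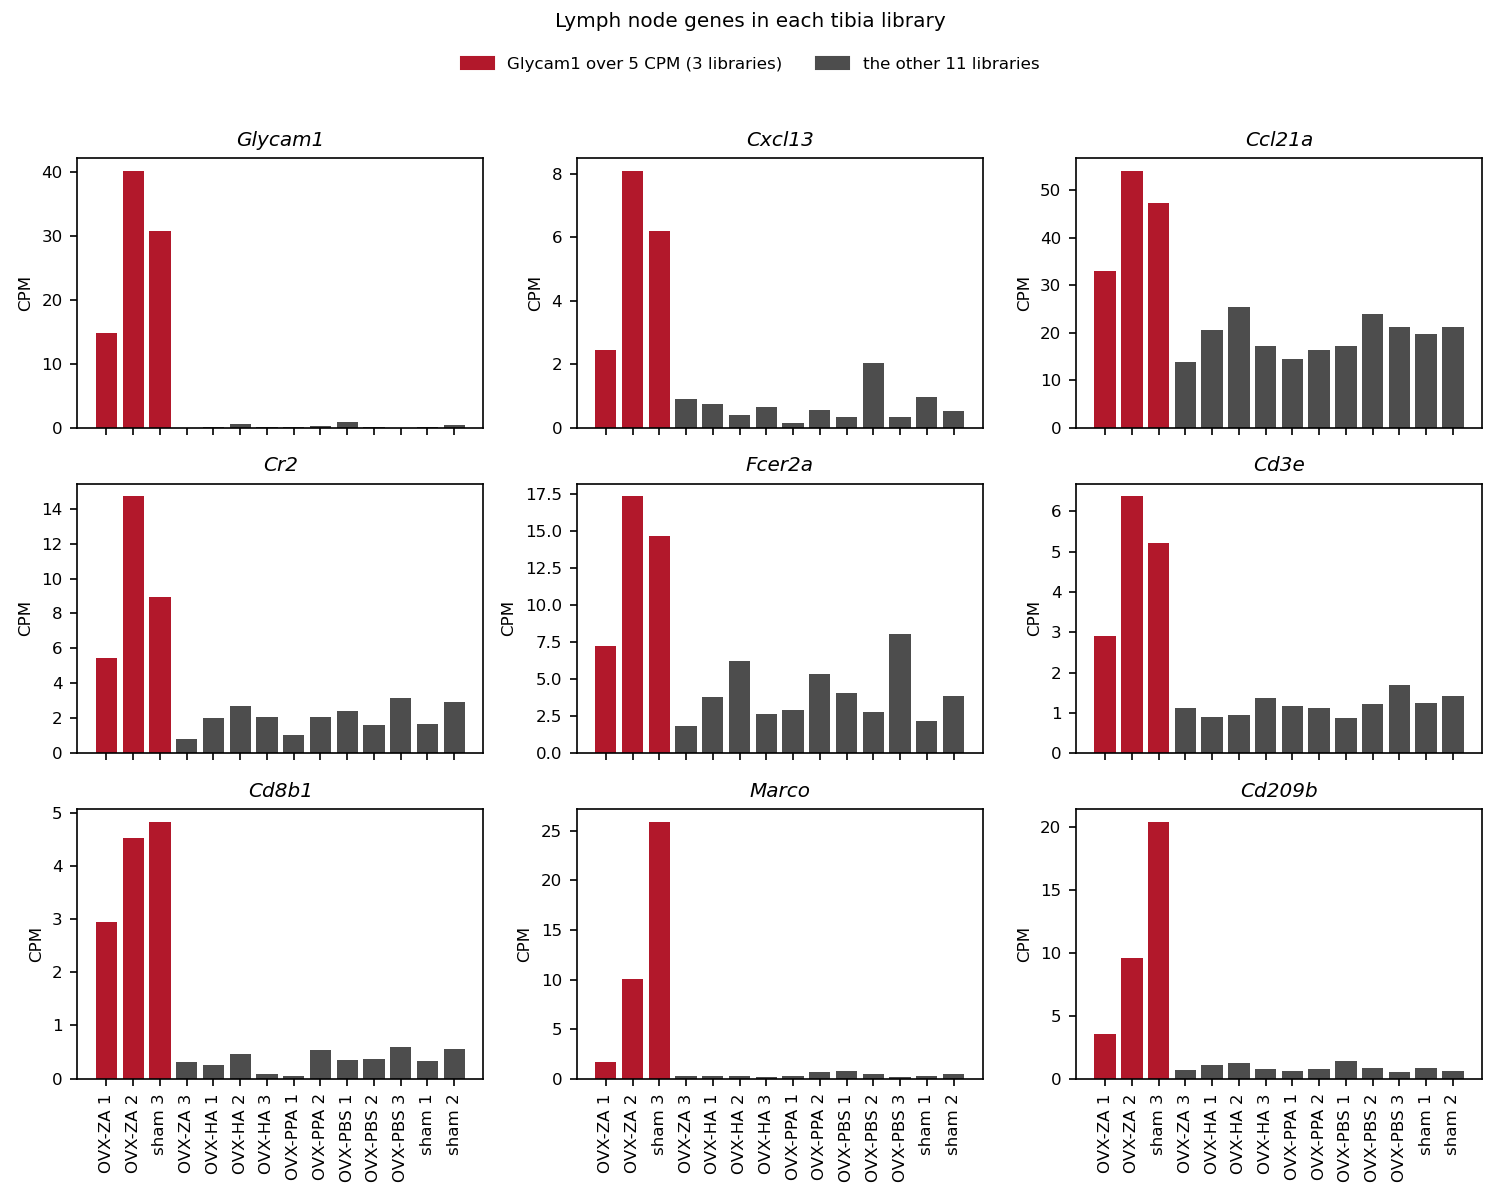
CPM of 9 lymph node genes in each of the 14 libraries, with the 3 carrying libraries at the left of each panel in red and the 11 lacking libraries in grey, each bar 1 library on a linear axis from 0. Glycam1 bars stand at 14.9, 40.2 and 30.8 CPM against at most 0.796 CPM elsewhere, while Marco and Cd209b are tallest in sham 3.

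Cxcl13, Ccl19 and Ccl21a, chemokines of the lymphoid stroma, were higher in every carrying library than in every lacking one. Cxcl13 read 2.44 CPM in OVX-ZA 1, 8.10 in OVX-ZA 2 and 6.19 in sham 3, against 0.160 to 2.05 CPM (median 0.539) in the lacking libraries, so the groups did not overlap although OVX-PBS 2 came close. The exact Poisson intervals of OVX-ZA 1 (1.63 to 3.50 CPM) and OVX-PBS 2 (1.59 to 2.58 CPM) overlapped, so that gap is within counting error. Ccl19 read 3.43, 6.56 and 4.96 CPM, against 0.793 to 2.58 CPM. Ccl21a read 32.9, 54.1 and 47.4 CPM, against 13.9 to 25.5 CPM in the lacking libraries, in all of which it was well detected. Ccl21a has near-identical copies that can share reads, and its copy Ccl21b overlapped (0.925 to 1.64 against 0.889 to 1.97 CPM). Ccl22, which mature dendritic cells make to attract T cells, read 5.30, 4.47 and 3.46 CPM, against 0.534 to 1.35 CPM, and was the 1 chemokine of which OVX-ZA 1 held the most among the carrying libraries. Its exact Poisson intervals overlapped between OVX-ZA 1 (4.07 to 6.775 CPM) and OVX-ZA 2 (3.62 to 5.45 CPM). In all, 4 of 6 chemokines had every carrying library above every lacking one, while Ccl17 and Ccl21b overlapped.

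Over all 21761 genes that passed the filter on low counts, 114 (0.524%) had every carrying library above every lacking library, and 31 of these were among the 142 lymph node genes that passed it (of 143 in the table and 144 listed in 13 lists). In the other direction 40 genes (0.184%) lay wholly below, with 0 lymph node genes among them. With a gap of at least 2-fold, 9 genes (0.0414%) were above, 5 of them on the lists (Glycam1, Cd8b1, Ccl22, Cd209b and Cd8a), and 1 (0.0046%), the pseudogene Hmgn2-ps1, was below. Against the 9 lacking libraries with nervous system RNA, 150 genes (0.689%) lay above and 137 (0.63%) below without overlap, and 10 (0.046%) and 1 (0.0046%) by at least 2-fold. The median ratio of the lowest carrying to the highest lacking library was 0.704 over the 143 lymph node genes in the table and 0.628 over all genes that passed. Without OVX-ZA 1, the shallowest library, 27 genes were above by at least 2-fold, with 17 lymph node genes among them, and 44 lymph node genes lay above without overlap. Leaving out any 1 carrying library raised the counts without overlap to between 200 and 387 above and between 121 and 385 below, with 32 to 44 lymph node genes above and 0 below. The rule used this same contrast, so nothing further is read from these counts.

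**Figure D2:**
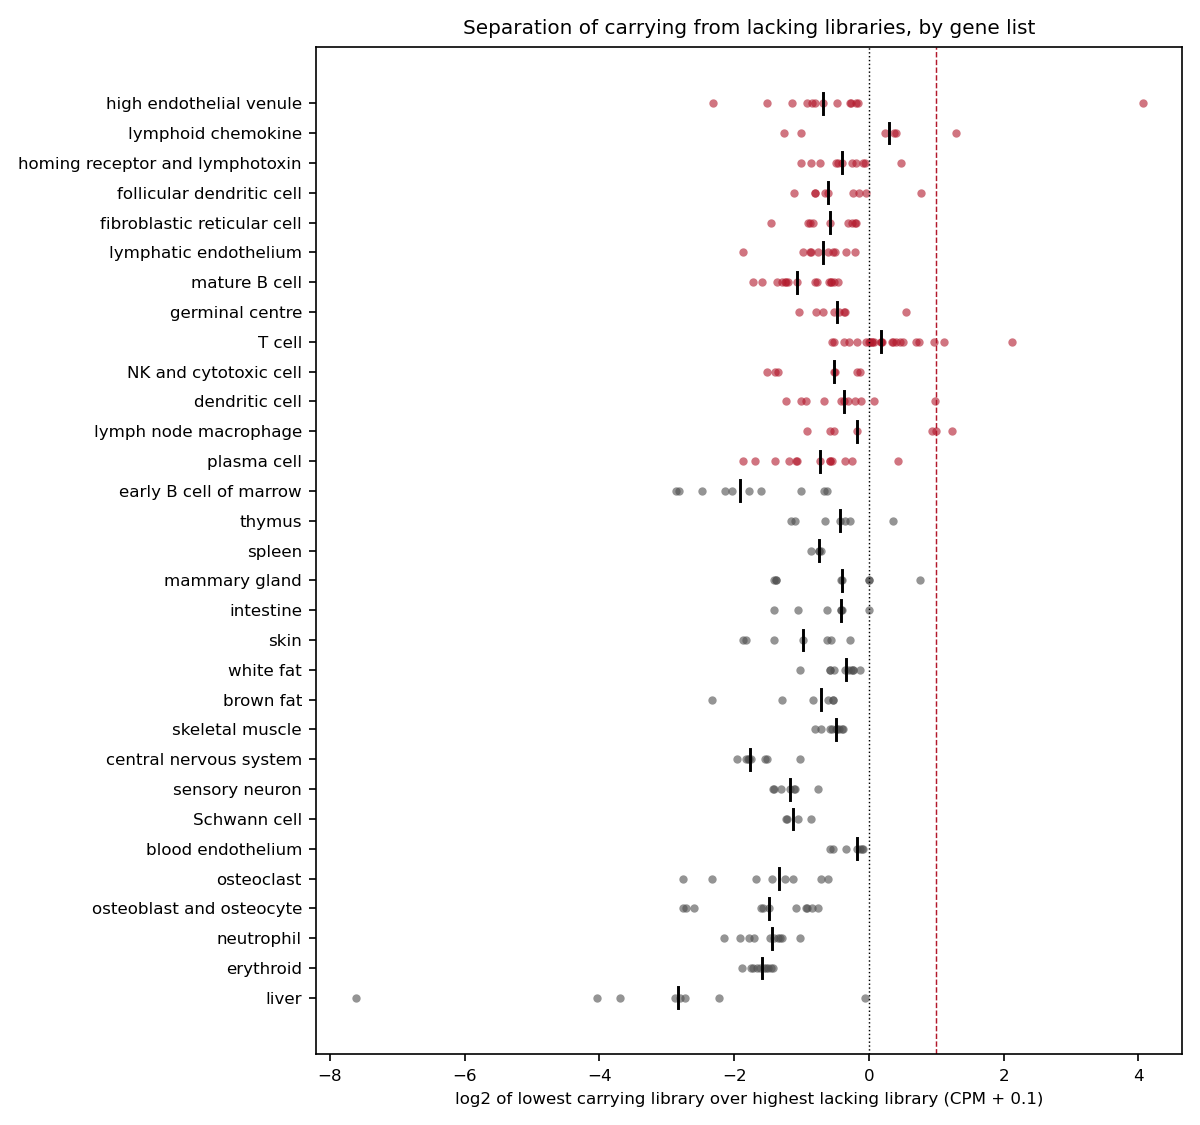
Separation of carrying from lacking libraries for each measured gene of the lists, as log2 of the lowest carrying over the highest lacking library with 0.1 CPM added. Genes that did not pass the filter are included. Lymph node lists are in red and other lists in grey, with a bar at each list's median. The dotted line at 0 marks no overlap and the dashed line a gap of 2-fold, and T cells (median ratio 1.13) and chemokines (1.24) are the lists whose median lies right of 0.

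T cell genes made up most of the lymph node genes that did not overlap, 17 of 24 on their list. Cd3e, a chain of the T cell receptor complex, read 2.91 CPM in OVX-ZA 1, 6.37 in OVX-ZA 2 and 5.23 in sham 3, against 0.869 to 1.70 CPM in the lacking libraries. Cd8a and Cd8b1 encode the 2 chains of the co-receptor of cytotoxic T cells. Cd8a read 3.87, 7.40 and 7.90 CPM, against 0.576 to 1.74 CPM, and Cd8b1 read 2.94, 4.51 and 4.82 CPM, against 0.0534 to 0.597 CPM. Both lay more than 2-fold clear of every lacking library. The co-receptor of helper cells, Cd4, was closer, with 7.31, 11.03 and 8.89 CPM against 2.03 to 7.08 CPM. The receptor constant regions behaved alike, with Trac at 4.88, 8.79 and 6.47 CPM, against 1.33 to 2.96 CPM. Trbc1 (4.67 to 8.61 against 1.05 to 3.49 CPM) and Trbc2 (4.83 to 10.2 against 1.23 to 3.75 CPM) are near-identical copies, so the split between them is uncertain. Foxp3, the factor of regulatory T cells, overlapped, with 1.82 to 3.05 against 1.56 to 2.698 CPM. The summed level of the 24 genes was 96.3 CPM in OVX-ZA 1, 169 in OVX-ZA 2 and 136 in sham 3, against 44.7 to 76.5 CPM in the lacking libraries. In bulk RNA more cells of a type and more RNA per cell cannot be told apart.

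Natural killer and cytotoxic genes did not follow the T cell genes, with 0 of 7 separated. Nkg7, a granule protein of cytotoxic cells, read 4.54, 5.63 and 6.19 CPM in OVX-ZA 1, OVX-ZA 2 and sham 3, against 2.56 to 11.8 CPM, so lacking libraries were the highest. Of 11 homing receptors and lymphotoxin genes only Lta, the lymphotoxin needed for lymph nodes to form, was separated, at 0.672, 1.21 and 1.57 CPM against 0.192 to 0.455 CPM. Ccr7, the receptor for CCL19 and CCL21, read 3.87, 7.63 and 7.66 CPM, against 0.876 to 4.41 CPM. The receptor for CXCL13, Cxcr5, read 4.18, 9.56 and 5.79 CPM, against 1.46 to 4.36 CPM. For each of these receptors OVX-ZA 1 lay just below the highest lacking library, OVX-PBS 3.

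Genes of the B cell follicle divided. Cr2 read 5.46 CPM in OVX-ZA 1, 14.7 in OVX-ZA 2 and 8.93 in sham 3, against 0.836 to 3.16 CPM (median 2.05) in the lacking libraries, and was the 1 separated gene of 9 on the follicular dendritic cell list. Fcer2a, the low-affinity IgE receptor of follicular dendritic cells and mature B cells, read 7.23, 17.3 and 14.6 CPM, against 1.83 to 8.05 CPM, with OVX-PBS 3 above OVX-ZA 1. The other 7, such as Clu (169 to 224 against 108 to 258 CPM) and Mfge8 (65.6 to 78.3 against 50.6 to 67.8 CPM), are made by many cell types and overlapped. Among the 7 germinal centre genes that passed the filter, Mef2b, a transcription factor of these B cells, was separated (0.672 to 1.54 against 0.1999 to 0.430 CPM), while the other 6 were not.

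None of the 15 mature B cell genes was separated. Ighd, the IgD heavy chain of naive B cells, read 25.3 CPM in OVX-ZA 1, 56.1 in OVX-ZA 2 and 40.6 in sham 3, against 11.3 to 37.5 CPM. Cd79a, a chain of the B cell receptor, read 28.3, 46.6 and 39.6 CPM, against 16.4 to 67.1 CPM. The highest Cd79a values were in lacking libraries, OVX-PBS 3 and OVX-PPA 2 (52.5 CPM). The summed level of the list was 721, 1142 and 744 CPM, against 437 to 1270 CPM, and the marrow's early B cell genes, such as Vpreb1 and Rag1, also had 0 of 10 separated, with sums of 138, 150 and 122 CPM against 116 to 235 CPM. Of 13 plasma cell genes Ighg2c alone was separated, at 38.9, 90.03 and 34.3 CPM against 3.73 to 25.3 CPM, while its neighbours Ighg2b (30.9 to 71.0 against 3.79 to 46.2 CPM) and Ighg1 (6.89 to 18.5 against 1.44 to 22.4 CPM) overlapped. Heavy chain segments share reads, so the split between them is uncertain.

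Macrophage genes were separated for 3 of 7, with an order of their own. Marco, a scavenger receptor of sinus macrophages, read 1.68 CPM in OVX-ZA 1, 10.1 in OVX-ZA 2 and 25.9 in sham 3, against 0.128 to 0.796 CPM (median 0.318) in the lacking libraries. Its exact Poisson intervals were 1.03 to 2.60, 8.75 to 11.5 and 24.1 to 27.8 CPM, so counting error does not bridge the 3 libraries. Cd209b, a lectin of lymph node and splenic macrophages with several close family copies, read 3.53, 9.58 and 20.4 CPM, against 0.540 to 1.44 CPM. Both genes were highest in sham 3. Timd4, a receptor for dying cells, read 2.86, 5.07 and 3.90 CPM, against 0.694 to 1.45 CPM, in the order of Glycam1 instead. Siglec1, the sialoadhesin of subcapsular sinus macrophages, overlapped narrowly (6.93 to 9.54 against 2.83 to 7.82 CPM), and Cd163, Cd5l and Vsig4 overlapped as well.

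Of 11 dendritic cell genes, 2 were separated. Ccl5, a chemokine made also by T cells, read 7.31, 8.56 and 9.82 CPM in OVX-ZA 1, OVX-ZA 2 and sham 3, against 0.747 to 3.65 CPM. Xcr1, the receptor of cross-presenting dendritic cells, read 1.35, 1.30 and 0.992 CPM, against 0.480 to 0.935 CPM. Fscn1, an actin bundler of migrating dendritic cells that neurons also make, overlapped (38.3 to 45.5 against 23.3 to 51.4 CPM).

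The reticular and lymphatic endothelial lists showed no separation. The stromal chemokines Cxcl13, Ccl19 and Ccl21a, which were separated, are on another list. Of 9 fibroblastic reticular cell genes 0 were separated, and their sum was 177 CPM in OVX-ZA 1, 147 in OVX-ZA 2 and 143 in sham 3, against 142 to 167 CPM. Of 10 lymphatic endothelial genes 0 were separated, with sums of 133, 129 and 118 CPM against 108 to 158 CPM. Lyve1, the hyaluronan receptor of lymphatic vessels, read 13.1, 11.2 and 15.02 CPM, against 9.23 to 14.2 CPM, and Prox1, which gives these vessels their identity, 7.57, 10.8 and 8.86 CPM against 4.48 to 13.8 CPM. The range of the lacking libraries enclosed that of the carrying ones for the lymphatic sum. For the reticular sum the ranges overlapped, with OVX-ZA 1 above every lacking library. How small a difference could be seen against these ranges was not tested.

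**Figure D3:**
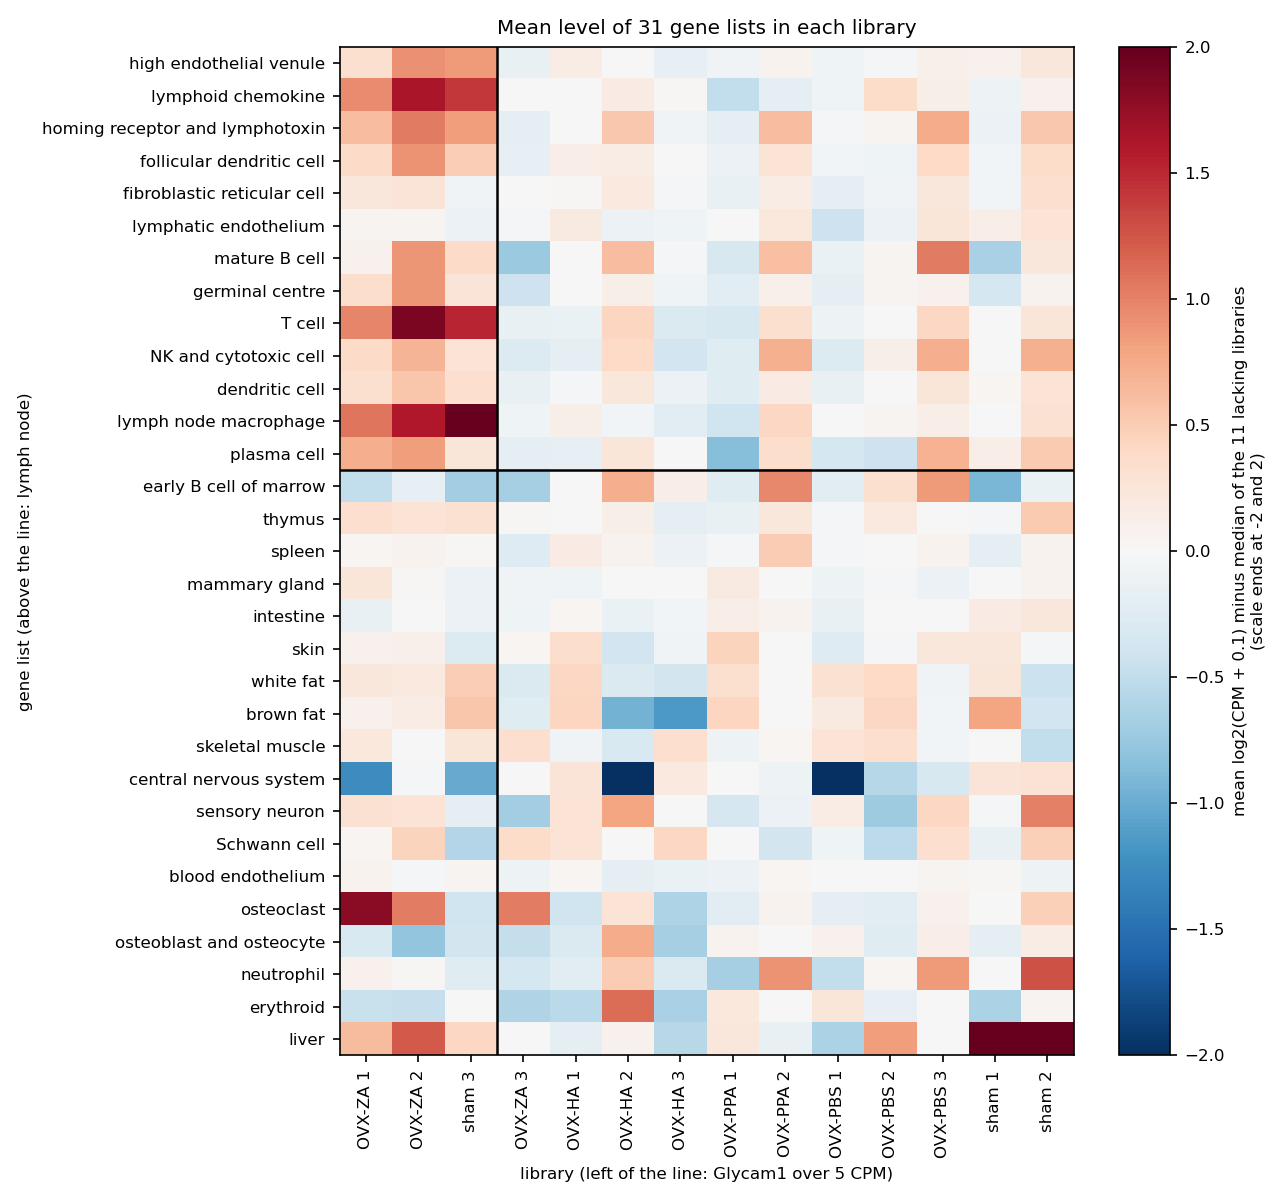
Mean log2(CPM + 0.1) of the members of each of 31 lists in each library, less the median of the 11 lacking libraries, with carrying libraries left of the vertical line, lymph node lists above the horizontal line and colours that end at -2 and 2. Chemokine, T cell and macrophage lists are red in all 3 carrying libraries, while the mature B cell list is as red in OVX-PBS 3, a lacking library, as in OVX-ZA 2.

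Marker lists of other tissues that share some of these genes were read as well. Glycam1 is also made by the mammary gland, and there Wap and Csn1s1 had 0 counts in all 14 libraries and the 8 milk genes summed to 1.60 CPM in OVX-ZA 1, 1.35 in OVX-ZA 2 and 0.855 in sham 3, against 0.996 to 1.87 CPM. The milk gene Csn2 had 1, 2 and 2 counts (0.0841, 0.0931 and 0.0684 CPM) in these libraries and 0 in each of the 11 others, which allows up to 0.160 CPM (3 counts) in the shallowest of them, OVX-PPA 1. Of thymus markers Foxn1 was at 0 in the carrying libraries and at most 0.0282 CPM elsewhere, and the 7 genes summed to 6.50 to 8.07 against 6.30 to 8.81 CPM. The 1 separated thymus gene was Aire, which rare cells of lymph nodes express as well as the thymic medulla, and it read 0.420, 0.512 and 0.547 CPM, against 0 to 0.307 CPM. The spleen factors Tlx1 and Nkx2-5 read at most 0.0465 and 0 CPM in carrying libraries, and at most 0.0640 and 0.0674 CPM in lacking libraries, and the 4-gene sum, nearly all of it Spic, was 4.88 to 6.51 CPM in carrying libraries against 3.52 to 8.93 CPM. The part of these tissues in the lymph node values was not tested.

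Within the sham group the same genes set 1 library apart from the other 2. Over all genes, 135 (0.62%) were at least 2-fold higher in sham 3 than in both sham 1 and sham 2, and 30 of these were lymph node genes. At the same time 959 genes (4.41%) were at least 2-fold lower in sham 3, among them 2 lymph node genes, 7 of 8 central nervous system genes and 6 of 8 liver genes. The nervous system list summed to 638 CPM in sham 3, against 1478 in sham 1 and 1553 in sham 2, and Alb, the albumin of liver, read 0.787 CPM against 13.8 and 14.5 CPM. White fat genes summed to 3036 CPM in sham 3, against 2643 and 1632 CPM. The part of these other tissues in the lymph node values was not tested.

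Within the OVX-ZA group 401 genes (1.84%) were at least 2-fold higher in both OVX-ZA 1 and OVX-ZA 2 than in OVX-ZA 3, of which 40 were lymph node genes, and 112 (0.515%) were at least 2-fold lower, of which 0 were. Nervous system genes summed to 522 and 1228 CPM in OVX-ZA 1 and OVX-ZA 2, against 1246 CPM in OVX-ZA 3, so they were low in only 1 of these carrying libraries. White fat genes summed to 2407 and 2495 CPM, against 1878 CPM. Mature B cell genes, which did not separate the libraries as a whole, passed the 2-fold gap here for 4 of 15, as in Fcmr, the IgM receptor (7.82 and 14.4 against 2.23 CPM). OVX-ZA 3 had the lowest Fcmr of the 14 libraries, and its mature B cell sum of 471 CPM lay near the low end of the lacking libraries (437 to 1270 CPM). It also had the lowest Cr2 (0.836 CPM), Ccl21a (13.9 CPM), Ccr7 (0.876 CPM), Cxcr5 (1.46 CPM) and Fcer2a (1.83 CPM). For Cxcl13, Cd3e and Cd8b1 other lacking libraries were lower. The gap of the 40 lymph node genes is thus measured from OVX-ZA 3 alone. White fat sums in the carrying libraries were above those of the same treatment's other libraries, but over all lacking libraries they ran from 1632 to 3001 CPM, and whether fat has a part in the lymph node values was not tested.

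Over the sham and OVX-ZA groups together, 57 genes (0.262%) were at least 2-fold higher in each carrying library than in every other library of its own treatment, and 27 of them were lymph node genes. With 1 CPM added in place of 0.1 CPM these counts were 18 and 14, so many of the genes rest on low levels. By list, with 0.1 CPM added, they were 12 of 24 T cell genes, 4 of 6 chemokines, 3 of 7 macrophage genes, 3 of 11 homing and lymphotoxin genes, 2 of 9 follicular dendritic cell genes, and 1 each of 13 venule, 7 germinal centre and 11 dendritic cell genes. The reticular, lymphatic, mature B, natural killer and plasma cell lists had 0. This gap uses only libraries of the same treatment, so zoledronic acid or ovariectomy does not differ across it, but the genes and libraries are those the rule chose. In the OVX-ZA group it rests on OVX-ZA 3 alone. Some genes that passed it, such as Ccr7, Cxcr5, Fcer2a and Lck, overlapped the lacking libraries as a whole.

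The excess of the 27 genes differed in size between the 3 libraries. For each gene it was taken as its CPM less the mean of the lacking libraries of the same treatment. For OVX-ZA 1 and OVX-ZA 2 this baseline was OVX-ZA 3 alone. The excess in OVX-ZA 1 over that in OVX-ZA 2 had a median of 0.391 (quartiles 0.334 and 0.467, range 0.140 to 1.27), and the excess in sham 3 over that in OVX-ZA 2 a median of 0.749 (quartiles 0.647 and 0.861, range 0.327 to 2.62). Glycam1 itself stood at 0.370 and 0.760. The order OVX-ZA 2, sham 3, OVX-ZA 1 held for 20 of 27 genes, Glycam1 included. The genes were chosen for their height in these same libraries, and the libraries for their Glycam1, so the ratios and the order describe the choice and support nothing beyond it. Fcer2a had an excess equal to 36.3% of the Glycam1 excess in OVX-ZA 1, 38.5% in OVX-ZA 2 and 38.0% in sham 3, and for Cd3e the shares were 12.1, 13.1 and 12.8%. Other genes with the same order had less even shares. Among them were Cxcl13 (10.2, 17.86 and 17.85%), Cr2 (31.1, 34.5 and 21.7%) and Ccl5 (38.2, 17.2 and 21.9%). CPM is not per length, so these shares are compared between libraries and not between genes.

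The other 7 genes had another order, and Marco and Cd209b had the highest ratios of sham 3 to OVX-ZA 2. Marco amounted to 9.16% of the Glycam1 excess in OVX-ZA 1, 24.2% in OVX-ZA 2 and 83.6% in sham 3, and Cd209b to 19.2, 22.2 and 64.3%. The sham library thus carried over 2 times the excess of OVX-ZA 2 for both genes (ratios of 2.62 and 2.21), while Glycam1 was lower in it. Ccl22 had the highest ratio of OVX-ZA 1 to OVX-ZA 2 (1.27), with an excess of 3.94 CPM in OVX-ZA 1, 3.11 in OVX-ZA 2 and 2.67 in sham 3, or 26.5, 7.75 and 8.73% of that of Glycam1. Cd8a, Cd8b1 and Lta also had more excess in sham 3 than in OVX-ZA 2 (ratios of 1.06, 1.05 and 1.30). For Cd8b1 the exact Poisson intervals of sham 3 (4.06 to 5.69 CPM) and OVX-ZA 2 (3.66 to 5.505 CPM) overlapped. Those of OVX-ZA 1 and OVX-ZA 2 overlapped for Ccl22, so these orders are within counting error. No interval was taken for Cd8a or Lta. Rgs13, a germinal centre gene with an excess of 0.336 CPM in OVX-ZA 1, 0.419 in OVX-ZA 2 and 0.137 in sham 3, had the lowest ratio of sham 3 to OVX-ZA 2 (0.327). That ratio rests on few counts, since 3 counts are 0.252, 0.140 and 0.103 CPM in these libraries. Rgs13 also reached 0.2045 CPM in OVX-PBS 2, a lacking library. With 1 sham library and 2 OVX-ZA libraries, treatment and library cannot be told apart in these differences.

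**Figure D4:**
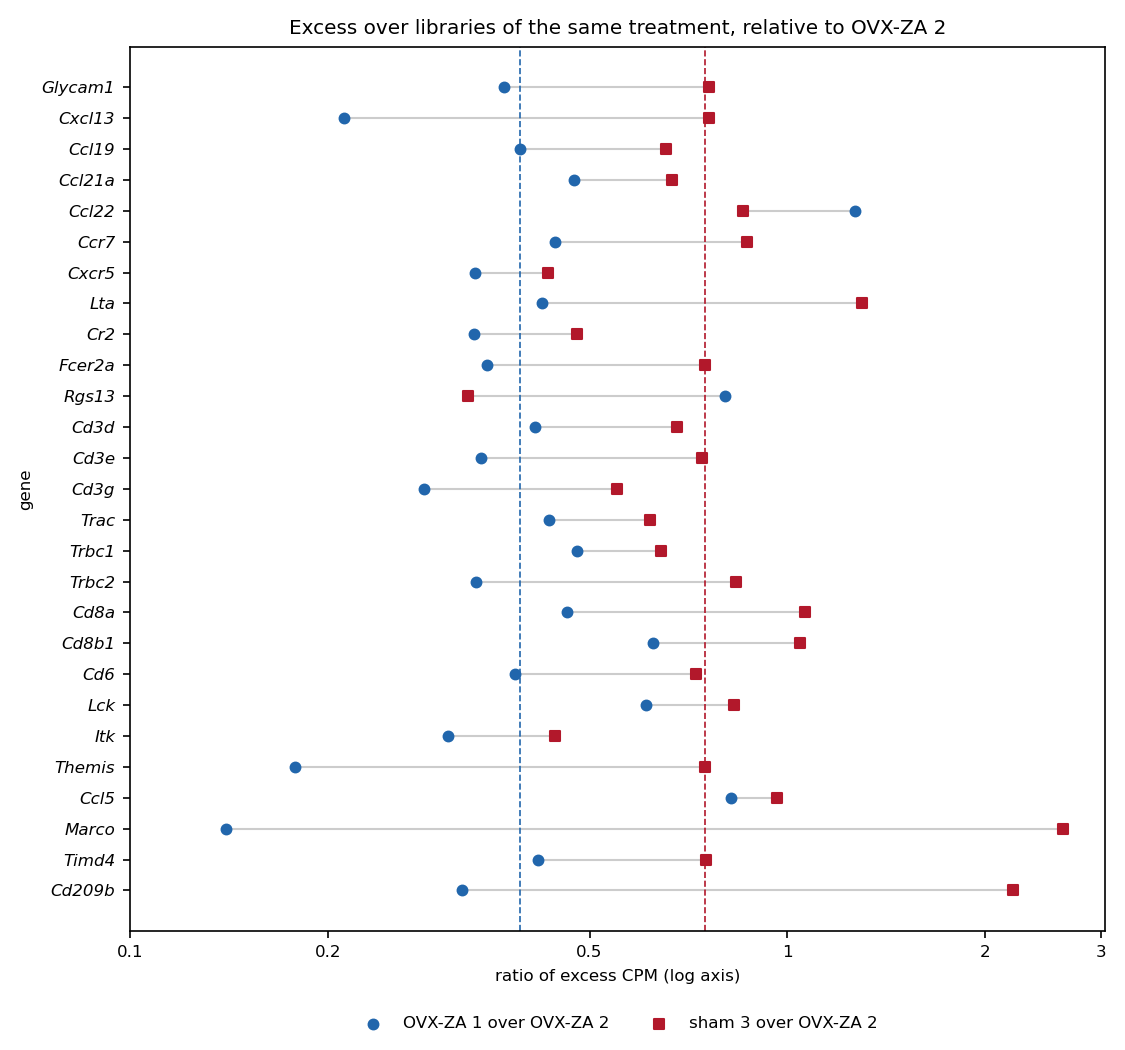
Excess CPM over the lacking libraries of the same treatment for 27 genes, as a ratio to the excess in OVX-ZA 2 on a log axis, with circles for OVX-ZA 1, squares for sham 3 and dashed lines at the medians (0.391 and 0.749). The squares have quartiles of 0.647 and 0.861, and those of Marco (2.62) and Cd209b (2.21) lie far to the right.

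The 20 genes of the whole table with the clearest gap were taken among those with at least 1 CPM in each carrying library. They were led by Glycam1, whose separation the rule fixed, and Cd8b1, and 12 of them were on the lymph node lists. Of the other 8, Dsc3, a desmosomal cadherin, read 2.35 CPM in OVX-ZA 1, 3.40 in OVX-ZA 2 and 1.61 in sham 3, against 0.0337 to 0.320 CPM in the lacking libraries. Apol7c, an apolipoprotein L gene of dendritic cells with close copies, read 2.36, 2.39 and 4.48 CPM, against 0.0391 to 0.740 CPM, and its relative Apol7e 2.26, 3.57 and 3.38 CPM against 0.415 to 1.35 CPM. Pla2g2d, a secreted phospholipase known from lymphoid tissue, read 5.80, 10 and 7.59 CPM, against 1.81 to 3.30 CPM. Cd27, a receptor of T and memory B cells, read 3.45, 4.28 and 3.28 CPM, against 0.694 to 2.24 CPM. The complement component C6 (2.09 to 2.42 against 0.267 to 1.19 CPM), the peptidoglycan amidase Pglyrp2 (2.02 to 2.37 against 0.213 to 1.16 CPM) and the unnamed transcript Gm2682 (1.16 to 1.35 against 0.117 to 0.640 CPM) completed the 20.

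The uneven spread of the carrying libraries enters the treatment comparisons. By edgeR's quasi-likelihood test over 21761 genes with Benjamini-Hochberg adjustment, 0 genes (0.0%) passed an adjusted p of 0.05 in OVX-ZA against OVX-PBS, in OVX-ZA against sham or in OVX-PBS against sham, so 0 of 142 lymph node genes did. At an unadjusted p under 0.05 there were 731, 607 and 594 genes, and DESeq2 called 32 (0.147%), 15 (0.0689%) and 1 (0.0046%), with 0 lymph node genes among them. Without OVX-ZA 2 edgeR called 1 gene in OVX-ZA against OVX-PBS, and without OVX-PBS 1 and OVX-HA 2 it called 6 there and 2 in OVX-ZA against sham, again with 0 lymph node genes. Group means nevertheless differed widely for some of these genes. Glycam1 chose the carrying libraries, and most of the genes named here are high in them. The directions in OVX-ZA against OVX-PBS and in OVX-PBS against sham were thus largely fixed by the choice. The values below describe the weight of the carrying libraries in each mean. In OVX-ZA against OVX-PBS the log2 difference was 6.26 ± 2.32 (SE) for Glycam1, 2.44 ± 1.10 for Cd8b1, 1.93 ± 1.03 for Cxcl13, 1.47 ± 0.80 for Cr2 and 1.38 ± 0.64 for Cd3e, each with an adjusted p of 0.899. In OVX-PBS against sham it was -5.57 ± 2.29 for Glycam1, -2.08 ± 1.08 for Cd8b1 and -1.42 ± 1.02 for Cxcl13, each with an adjusted p of 0.913. OVX-ZA and sham, which both hold carrying libraries, differed by 0.70 ± 1.66 for Glycam1 and 0.51 ± 0.97 for Cxcl13 (adjusted p = 1 for both). The comparisons share OVX-PBS or sham libraries and are not independent of each other.

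The comparisons were also made without the 3 carrying libraries. These libraries were removed for their high Glycam1 and most of the genes followed here are high in them, so lower OVX-ZA and sham means were largely fixed by the choice, and the changes of sign below describe how much the 3 libraries weigh in each mean. In OVX-ZA against OVX-PBS the log2 difference was then -0.033 ± 1.02 for Cxcl13, -1.50 ± 0.53 for Cr2, -0.17 ± 0.41 for Cd3e and -0.46 ± 1.00 for Cd8b1 (adjusted p = 1 for Cxcl13 and 0.989 for the others, edgeR). OVX-ZA is then the 1 library OVX-ZA 3, whose spread is assumed to be that of the other groups. In OVX-PBS against sham, with sham 1 and sham 2 left, it was 0.46 ± 0.81 for Cxcl13, 0.18 ± 0.37 for Cr2, 0.042 ± 0.31 for Cd3e and 0.13 ± 0.73 for Cd8b1 (adjusted p = 0.882 to 0.975, edgeR). Over the 11 genes named for these comparisons and all 3 comparisons, 26 of 31 values changed sign and 5 kept it, and again 0 of 140 lymph node genes passed. No fold is given for Glycam1 in OVX-ZA without the carrying libraries, since OVX-ZA 3 is at 0. Ms4a1, the B cell antigen CD20, differed by -0.12 ± 0.52 in OVX-ZA against OVX-PBS with all libraries and by -1.35 ± 0.67 without the carrying ones (adjusted p = 0.966 and 0.989), with the same sign.

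**Figure D5:**
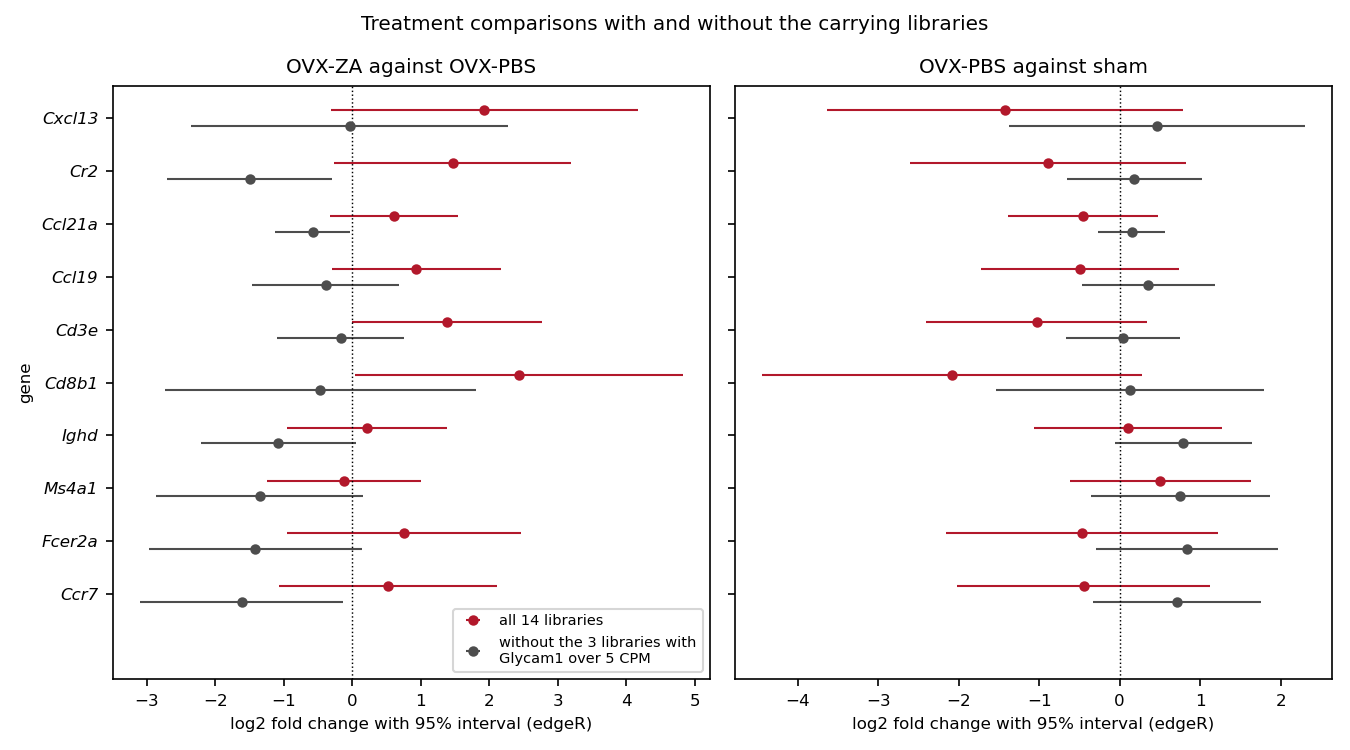
Log2 fold changes from edgeR for 10 lymph node genes in OVX-ZA against OVX-PBS (left) and OVX-PBS against sham (right). Bars are approximate 95% intervals derived from the F statistics. Values with all 14 libraries are in red and those without the 3 carrying libraries in grey. Cxcl13 sits at 1.93 and -0.033 in the left panel and at -1.42 and 0.46 in the right panel, and most genes cross 0 in the same way.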

How the data were processed

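Tibia RNA was measured in 14 libraries that fall into 5 groups. The labels' protocols name poly(A) RNA, a stranded mRNA kit and single reads of 75 nt. In the submitters' processing notes STAR 2.7.8a, Bowtie2 2.2.5, CASAVA 1.8.1, Partek and build mm10 appear without a role. The counting tool, annotation and use of strand are not stated there.

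The authors deposited estimated counts, not normalized, for 55291 gene symbols, of which 20.7% of the values were more than 0.01 away from a whole number. A second deposited table of log2 values matched log2 of the count plus 1e-04, less 1 constant per library, to within 0.00553 and was not used further.

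CPM was taken over the column sum. Counts were rounded for edgeR 4.0.16 (R 4.3.3), filtered by group (21761 genes kept), scaled by TMM and fitted with a mean per group (9 residual degrees of freedom, biological coefficient of variation 25%), two-sided, with an FDR of 0.05. DESeq2 1.42.0, other scaling, no filter, a pseudocount of 1 CPM, a replicate block and leaving out libraries were alternatives. Scripts were tested on simulated data.

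Values by library are given for Glycam1, Cxcl13, Cr2, the 1 to 6 genes of each list with the widest gap, the 20 genes with the widest gap of all and 11 genes in the treatment comparisons. Some genes that this rule selects are not reported here. Other genes named as examples were chosen after their values were seen. The libraries, lists and genes were chosen with earlier results of these data known. Of the symbols, 96.4% matched the mm10 annotation, which gave gene IDs and coordinates. Promoter sequences are from RefSeq (GRCm38.p6), in which Cd8b1 and Ccl5 were not found.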

Additional observations from a re-analysis of the deposited data

How the results depend on the processing

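With a pseudocount of 1 CPM, 2 genes (Glycam1 and Cd8b1) were at least 2-fold above and 0 below, 33 were higher and 277 lower in sham 3, 73 higher and 5 lower in OVX-ZA 1 and OVX-ZA 2, and 18 higher in both groups, 14 of these lymph node genes. On TMM-scaled CPM 580 genes were lower in sham 3 and 63 lay below without overlap. With no filter 330 were higher in sham 3, 374 lower in OVX-ZA 1 and OVX-ZA 2, and 63 below without overlap. Without OVX-PBS 1 and OVX-HA 2, 137 lay below without overlap. Leaving out 1 carrying library at a time gave 10 to 27 genes at least 2-fold above, 1 to 9 below, 200 to 387 above and 121 to 385 below without overlap, as fewer libraries make a gap easier. The counts without overlap and in both groups were added after the data were seen.

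For OVX-ZA against OVX-PBS, 3 genes were called with no filter, 6 without OVX-PBS 1 and OVX-HA 2, 0 to 1 when a library of either group was left out, and 32 by DESeq2. For OVX-ZA against sham the counts were 2 with no filter, 2 without OVX-PBS 1 and OVX-HA 2, and 15 by DESeq2, and for OVX-PBS against sham DESeq2 called 1. None of these calls was a lymph node gene. The cause of these differences was not tested.

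Without the 3 carrying libraries, 26 values of single genes changed sign (adjusted p = 0.781 to 1, edgeR). In OVX-ZA against OVX-PBS the log2 difference was then -0.033 for Cxcl13, -1.50 for Cr2, -0.57 for Ccl21a, -0.39 for Ccl19, -0.17 for Cd3e, -0.46 for Cd8b1, -1.08 for Ighd, -1.41 for Fcer2a and -1.61 for Ccr7. In OVX-ZA against sham it was -1.32 for Cr2, -0.42 for Ccl21a, -0.031 for Ccl19, -0.13 for Cd3e, -0.33 for Cd8b1, -0.29 for Ighd, -0.60 for Ms4a1, -0.57 for Fcer2a and -0.90 for Ccr7. In OVX-PBS against sham it was 0.46 for Cxcl13, 0.18 for Cr2, 0.15 for Ccl21a, 0.36 for Ccl19, 0.042 for Cd3e, 0.13 for Cd8b1, 0.84 for Fcer2a and 0.71 for Ccr7. Of the counts, 54 others stayed within 1.5 times.

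The samples were not treated as paired by replicate number. Deviations of same-numbered libraries correlated from -0.26 to 0.297. Differently numbered libraries were not compared, so these values cannot decide whether a pairing exists. With the replicate number as a block 0 genes were called in each of the 3 comparisons, and all 33 values of single genes kept their sign (adjusted p = 0.905 to 0.999, edgeR). The depth of OVX-ZA 1 limits what can be seen there: 3 counts are 0.252 CPM.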

Other observations

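Of the 57 genes at least 2-fold higher in each carrying library than in the other libraries of its treatment, 30 were on no lymph node list. The following were picked from these 30 after their values were seen and carry no test. Several are lymphocyte genes. Gimap3, a GTPase of lymphocyte survival, read 16.6 CPM in OVX-ZA 1, 31.2 in OVX-ZA 2 and 23.9 in sham 3, against 6.39 to 15.1 CPM in the lacking libraries. Art2b, a T cell ADP-ribosyltransferase, read 0.672, 2.08 and 2.06 CPM, against 0.0409 to 0.552 CPM. Ccr6, a chemokine receptor of B and T cells, read 0.588, 1.86 and 1.37 CPM, against 0.0660 to 0.438 CPM. Both genes lay above every lacking library.

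Genes of antigen loading in B cells were among them too. H2-Oa, which with H2-Ob restrains peptide loading, read 2.85, 4.83 and 3.21 CPM in OVX-ZA 1, OVX-ZA 2 and sham 3, against 0.789 to 2.72 CPM, and H2-DMb2 read 8.70, 16.2 and 11.9 CPM, against 2.73 to 8.34 CPM. Il22ra2, a soluble receptor that binds interleukin 22 and is made by dendritic cells, read 1.26, 2.14 and 0.924 CPM, against 0.0398 to 0.472 CPM.

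Some others have no clear link to a lymph node. Serpina10, a serpin made by liver, read 0.588, 0.837 and 0.582 CPM, against 0 to 0.153 CPM, and Crisp3, a secreted protein of glands and B cells, 0.504, 0.512 and 0.582 CPM against 0 to 0.141 CPM. Vmn2r97, annotated as a vomeronasal receptor, read 2.77, 4.65 and 3.76 CPM, against 0.796 to 1.99 CPM. The immunoglobulin segment Igkv13-84 was high in 1 carrying library, with 12.6 CPM in OVX-ZA 2, 0.970 in OVX-ZA 1 and 1.13 in sham 3, against at most 2.26 CPM in the lacking libraries, and it shares reads with other segments.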
